A study of Mus musculus with 10 samples.

Results

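CD103 (integrin αE, Itgae) is an adhesion molecule that pairs with integrin β7, binds E-cadherin on epithelial cells and is carried by many T cells that reside in skin. The T cell receptor β chain of such cells was compared between 2 sorts of dermal αβ T cells, one labelled CD103hi and one labelled CD103+. They are 2 of the 10 libraries of the series and 2 of its 9 TRB (β chain) libraries, and they were chosen by these sample labels alone. Both came from ear skin of mice of the strain B6.129P2-Tcrdtm1Mom/J (Tcrd-/-), which lack the δ chain gene and so γδ T cells, including the γδ cells that normally fill the epidermis. From dermal suspensions, living cells positive for CD45, CD3 and TCRβ were sorted by their level of CD103. Sex and age are not in the labels, each library is a pool of 5 to 18 animals, and the sources used here do not say whether the gates touched or whether the pools came from the same animals. Receptor RNA was copied by 5′ RACE, amplified by PCR and sequenced. Such libraries hold receptor transcripts only, so Itgae, Tcrd and markers of other cells were not measured.

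Each β chain is made by joining a V, a D and a J segment. Exonucleases trim the segment ends, and the enzyme TdT adds bases that no segment encodes. The joint lies in the CDR3, the loop that contacts the peptide presented by MHC. Because TdT is absent from the fetal thymus and active after birth, chains without added bases are common in T cells made early in life, although adult cells make some as well. A clonotype is here a distinct combination of V, J and nucleotide CDR3, and an inserted base is a CDR3 base that the deposited positions give to no segment.

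The CD103hi library held 31823 reads in 457 clonotypes and the CD103+ library 42849 reads in 492. Of these, 208 and 240 clonotypes rested on 1 read, and the 178 and 172 clonotypes with at least 10 reads held 98.5% and 98.9% of reads. A segment or clonotype with no read could have had a read share of up to 0.00943% in CD103hi and 0.00700% in CD103+. No molecular identifiers are named for these libraries, and PCR copies are not separate molecules. All intervals (95%; Wilson for shares of clonotypes, exact for shares of reads, Newcombe for differences) therefore cover counting error only. With 1 library per sort there was no test between sorts, and pool, animals and CD103 level cannot be told apart. A read share also cannot separate more cells of a clone from more receptor RNA per cell. For the spread between pools of one kind, the epidermal Tcrd-/- libraries (n = 3, called A to C), the bulk dermal Tcrd-/- libraries (n = 2) and the single dermal wild-type (C57BL/6-N/Crl) and Tcrd-/- lymph node libraries are given where they bear on a value.

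The leading clonotypes of the sorts show the kinds of joint that the rest of the values describe. Capitals mark inserted bases, and everything in lower case was given to a V, D or J segment. The 5 largest clonotypes of the CD103hi library were as follows.
CD103hi TRBV12-2/TRBJ1-4: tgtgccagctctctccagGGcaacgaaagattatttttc
CD103hi TRBV1/TRBJ2-5: tgcacctgcagtgaagacacccagtacttt
CD103hi TRBV12-2/TRBJ2-1: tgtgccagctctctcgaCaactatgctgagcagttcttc
CD103hi TRBV1/TRBJ1-4: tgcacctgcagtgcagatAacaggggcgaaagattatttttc
CD103hi TRBV20/TRBJ2-5: tgtggtgctagccaagacacccagtacttt
They took 2239 reads (7.04%), 1387 reads (4.36%), 1319 reads (4.14%), 799 reads (2.51%) and 715 reads (2.25%) in the order printed. None carried more than 2 inserted bases. The leading TRBV12-2/TRBJ1-4 clonotype had 1 read in the CD103+ library and the other 4 had none.

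In the CD103+ library the 5 largest clonotypes mostly used other segments, and 3 of them carried 4 or 5 inserted bases.
CD103+ TRBV20/TRBJ2-2: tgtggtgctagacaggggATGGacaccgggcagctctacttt
CD103+ TRBV16/TRBJ1-1: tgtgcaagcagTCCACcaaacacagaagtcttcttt
CD103+ TRBV13-2/TRBJ2-7: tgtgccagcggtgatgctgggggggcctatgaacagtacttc
CD103+ TRBV26/TRBJ1-2: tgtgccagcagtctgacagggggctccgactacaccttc
CD103+ TRBV26/TRBJ2-4: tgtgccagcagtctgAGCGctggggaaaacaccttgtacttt
Their read counts were 2362 (5.51%), 1675 (3.91%), 1273 (2.97%), 885 (2.07%) and 842 (1.97%). The TRBV16/TRBJ1-1 clonotype had 1 read in the CD103hi library, and the other 4 had none there.

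Joints without inserted bases made up a larger share of the CD103hi clonotypes. They were 45.1% of clonotypes in CD103hi and 31.1% in CD103+, a difference of 14 percentage points (7.81 to 20.02). Among clonotypes with at least 10 reads, the shares were 49.4% and 27.3%, 22.1 points apart (11.96 to 31.6), and by reads they were 47.7% and 26.2%. The gap was widest among large clonotypes. With at least 100 reads (92 clonotypes in CD103hi and 100 in CD103+), 51.1% and 22.0% had no inserted base, 29.1 points apart (15.5 to 41.3). With 10 to 99 reads the shares were 47.7% and 34.7%, with 2 to 9 reads 36.6% and 38.8%, and with 1 read 44.2% and 31.2%. The 2 to 9 read class was thus the one class in which CD103+ had the higher value, but the interval of that difference (-17.1 to 13.2 points) included both signs. The interval of the 10 to 99 read class (-2.45 to 27.4) did as well, so neither class settles a direction. Of the 63 CD103+ clonotypes at under 1% of their share in another library, 39 had 1 read and the largest had 4. They thus lie in the classes with fewest reads, and their effect there was not tested.

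Against the other TRB libraries, the CD103hi value lay within the range of the epidermal Tcrd-/- pools and the CD103+ value lay between those and the bulk dermal ones. The epidermal libraries had 37.5% to 46.4% of clonotypes without inserted bases, the bulk dermal libraries 18.3% and 18.2%, wild-type dermis 20.8% and lymph node 17.4%. With at least 10 reads, the epidermal range was 54.4% to 69.2%, above the CD103hi value of 49.4%, and the bulk dermal values were 14.6% and 11.9%.

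**Figure D1:**
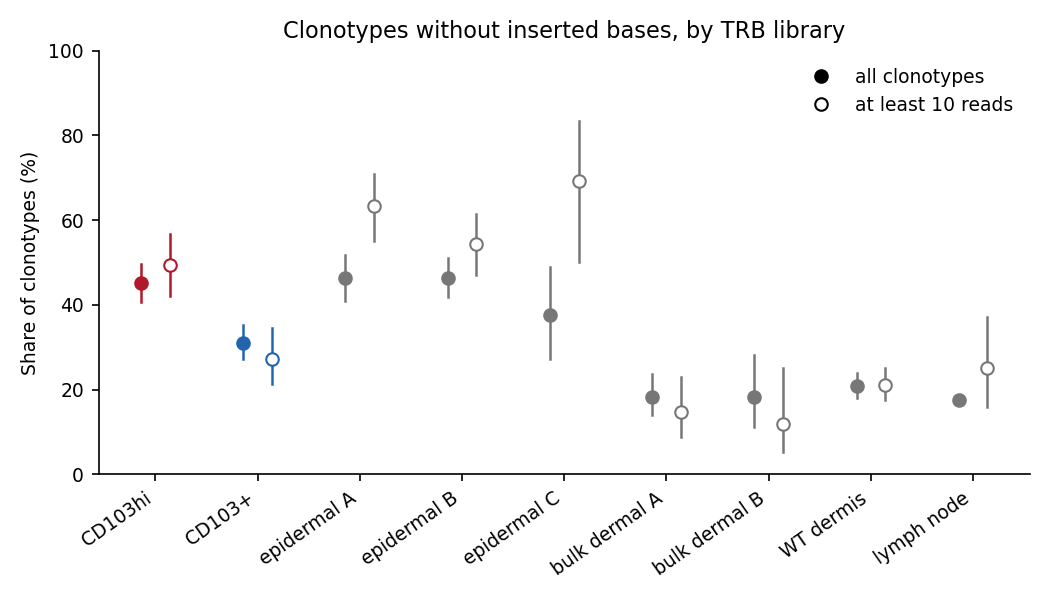
Share of clonotypes without inserted bases (y axis, percent) in each of the 9 TRB libraries (x axis), over all clonotypes (filled points) and over clonotypes with at least 10 reads (open points); bars are 95% Wilson intervals of counting error. CD103hi stands at 45.1% and 49.4%, CD103+ at 31.1% and 27.3%, and the bulk dermal libraries at 18.3% or less.

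Over all clonotypes, including those without inserted bases, inserted bases were more numerous in CD103+. The mean number was 1.62 ± 2.22 (SD over 457 clonotypes) in CD103hi and 2.37 ± 2.86 (SD over 492 clonotypes) in CD103+. The medians were 1 and 2. The difference in means, -0.744 bases, was smaller in size than the largest gap among epidermal libraries (1.07) and the bulk dermal gap (1.47). With at least 10 reads the means were 1.36 and 2.24, -0.879 apart. The gaps were then 0.349 (epidermal) and 1.08 (bulk dermal). At least 5 inserted bases were found in 7.88% and 15.04% of clonotypes, a difference of -7.16 points (-11.2 to -3.12). Clonotypes with 1 or 3 inserted bases were about as frequent in both, at 14.9% and 14.02% for 1 base and 12.7% and 12.8% for 3 bases. Clonotypes with 2 inserted bases were at 12.5% and 15.9% and those with 4 at 7.002% and 11.2%, so the lower values of CD103hi were spread over 2, 4 and 5 or more bases.

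The difference in joints without inserted bases was about as large at equal segment usage. Reweighting each library to the same TRBV mix gave 43.9% in CD103hi and 31.2% in CD103+, and the same TRBJ mix gave 45.3% and 29.8%. Of 12 TRBV segments with at least 10 clonotypes in each sort, 10 had the higher share in CD103hi; the exceptions were TRBV13-2 and TRBV26. Of 11 TRBJ segments, 9 did, the exceptions being TRBJ1-2 and TRBJ1-4. A second definition, the germline rule, used the reference annotation and not the deposited positions. It gave bases to V from the CDR3 start, and to J from its end, up to the first difference from germline. The longest D match between them went to D, and all other bases counted as non-germline. Bases past a first difference were thus counted even where they matched V or J. The means were 6.79 in CD103hi and 7.53 in CD103+, and 2.24 and 3.75 with at least 10 reads. By this rule, 27.8% and 16.1% of clonotypes were wholly germline, and 46.1% and 12.8% of those with at least 10 reads, 33.3 points apart (24.1 to 41.7).

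The 3 largest complete clonotypes without inserted bases differed in build between the sorts. In CD103hi all 3 joined a V segment straight to TRBJ2-5 with no D segment assigned, and each was 10 amino acids long. They were the TRBV1/TRBJ2-5 and TRBV20/TRBJ2-5 clonotypes printed above and a TRBV31/TRBJ2-5 clonotype with 621 reads (1.95%).
CD103hi TRBV31/TRBJ2-5: tgtgcctggagtcaagacacccagtacttt
In CD103+ the 3 largest were 13 to 15 amino acids long and all kept part of a D segment. The TRBV13-2/TRBJ2-7 and TRBV26/TRBJ1-2 clonotypes are printed above, and the third was a TRBV29/TRBJ2-2 clonotype with 689 reads (1.61%).
CD103+ TRBV29/TRBJ2-2: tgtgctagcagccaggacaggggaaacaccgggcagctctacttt

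At the other end, the complete clonotypes with the most inserted bases among those with at least 10 reads and a germline-like J end are printed to show what a long addition looks like. CD103hi had 8 bases in a TRBV13-3/TRBJ1-2 clonotype (205 reads, 0.644%) and 7 in a TRBV19/TRBJ2-2 clonotype (24 reads, 0.0754%). CD103+ had 11 bases in one TRBV1/TRBJ1-1 clonotype (291 reads, 0.679%) and 9 in another (255 reads, 0.595%). The largest number at that depth was 14 bases, in 1 further CD103hi clonotype (169 reads) that is not printed because its J end differed from the germline J at 3 or more bases. Part of a D segment too short to be assigned can be counted among inserted bases.
CD103hi TRBV13-3/TRBJ1-2: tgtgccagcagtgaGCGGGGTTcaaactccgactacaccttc
CD103hi TRBV19/TRBJ2-2: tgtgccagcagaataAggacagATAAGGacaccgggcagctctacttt
CD103+ TRBV1/TRBJ1-1, 291 reads: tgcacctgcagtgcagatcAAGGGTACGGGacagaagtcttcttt
CD103+ TRBV1/TRBJ1-1, 255 reads: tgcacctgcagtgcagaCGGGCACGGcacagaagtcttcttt

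CDR3 loops were slightly shorter in CD103hi, and fewer of them were long. The mean was 13.2 ± 1.71 amino acids in CD103hi and 13.5 ± 1.74 in CD103+ (SD over 457 and 492 clonotypes), and by reads it was 12.8 and 13.7. Loops of at least 15 amino acids were 18.2% and 28.0% of clonotypes, -9.89 points apart (-15.1 to -4.52), and 11.8% and 27.4% of reads. The commonest length was 14 amino acids in both, with 32.6% and 23.98% of clonotypes. Loops of 12 amino acids or fewer were 27.8% and 24.8%, a difference whose interval included 0. The epidermal libraries had 13.9% to 17.3% of clonotypes at 15 or more amino acids and the bulk dermal ones 42.6% and 37.7%.

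**Figure D2:**
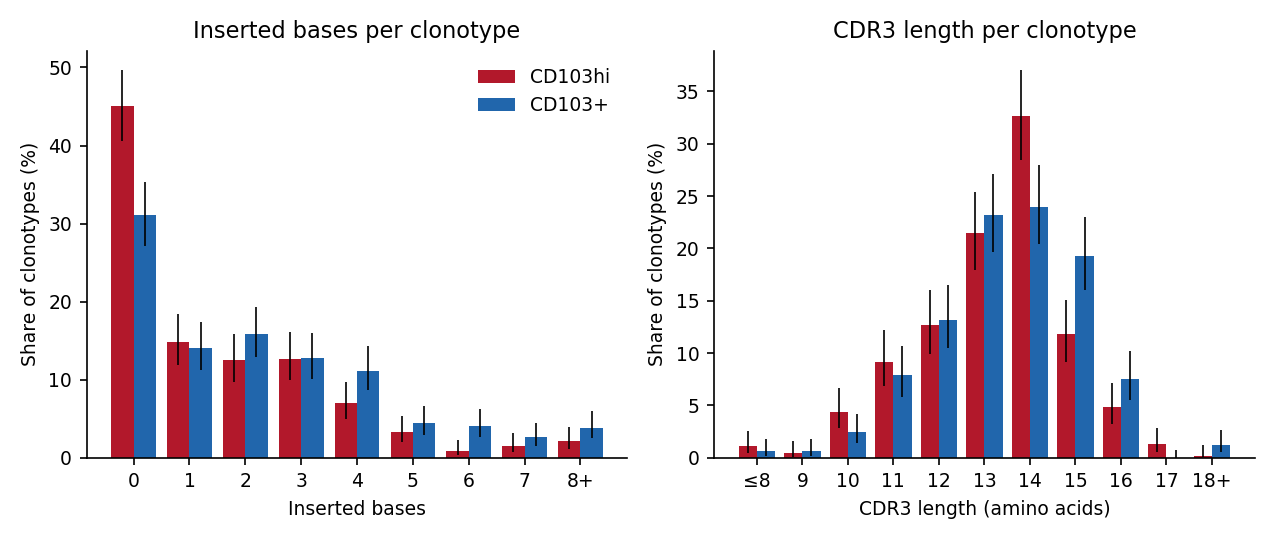
Share of clonotypes (y axis, percent) by number of inserted bases (left x axis, bases) and by CDR3 length (right x axis, amino acids) in CD103hi and CD103+; bars carry 95% Wilson intervals of counting error. CD103hi is higher at 0 inserted bases (45.1% against 31.1%) and at 14 amino acids (32.6% against 23.98%).

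Trimming of the segment ends differed less. By the deposited positions, V ends had lost 1.98 ± 2.04 bases in CD103hi and 2.54 ± 2.51 in CD103+ (SD over 456 and 492 clonotypes). Among clonotypes with at least 10 reads the values were 1.66 and 2.40. These positions can give a base to both V and J, and can count a base that differs from the germline V as kept. In the TRBV1/TRBJ2-5 clonotype printed above, 0 V bases were counted as trimmed, although its sequence differs from the germline TRBV1 end. By the germline rule the order over all clonotypes turned, at 5.04 and 4.95 bases, and with at least 10 reads it was 2.46 and 3.15. For J ends the order was the other way round, at 3 ± 2.51 and 2.85 ± 2.64 over all clonotypes and 3.28 and 2.74 with at least 10 reads. J segments that kept their whole end were 20.6% and 28.5% of clonotypes, -7.89 points apart (-13.3 to -2.40). Trimming of the D segment averaged 4.77 and 4.84 bases (287 and 323 clonotypes with a D segment), and the sign of that difference turned when single-read clonotypes were left out. By the deposited positions the epidermal libraries lost 2.37 to 2.65 bases at the V end, so the CD103hi value lay below all 3 of them.

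D segment assignment differed less by clonotype than by reads. The D names are those deposited. TRBD1 and TRBD2 share runs of bases, so a short remnant need not identify the segment. In CD103+, for instance, a TRBV5/TRBJ1-2 clonotype (769 reads, 1.79%) was named TRBD2 with 8 D bases trimmed. TRBD1 was assigned to 31.3% of CD103hi and 37.6% of CD103+ clonotypes, -6.31 points apart (-12.3 to -0.255), TRBD2 to 31.5% and 28.0%, and no D segment to 37.2% and 34.3%. With at least 10 reads TRBD1 was assigned to 30.9% and 43.02%, -12.1 points apart (-21.9 to -2.01). By reads, chains with no assigned D were 52.8% of CD103hi and 28.4% of CD103+, and chains with TRBD1 23.7% and 45.7%. The 3 largest CD103hi clonotypes are among those with none.

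The reading frame of the D segment differed widely. A D segment can be read in any of its frames, and the germline sequences are printed here since the residues at the tip of the loop follow from them.
TRBD1: gggacagggggc
TRBD2: gggactgggggggc
One frame encodes aspartate followed by arginine and glycine in TRBD1 (DRG), or by tryptophan and glycines in TRBD2 (DWGG). Another encodes threonine between glycines (GTGG), and the last encodes glutamine or leucine between glycines (GQG or GLGG). The frame was clear for 214 clonotypes in CD103hi and 228 in CD103+. The aspartate frame was used by 114 of the 214 (53.3%; 46.6 to 59.8) and by 58 of the 228 (25.4%; 20.2 to 31.5), a difference of 27.8 points (18.8 to 36.2). The threonine frame showed the opposite, at 20.1% and 43.4%, -23.3 points apart (-31.4 to -14.7). The glutamine or leucine frame was at 26.6% and 31.1%. The frames were examined after other values of these libraries had been seen, and were therefore described over many classes.

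The difference was larger for TRBD2 than for TRBD1. Among clonotypes with a clear TRBD2 frame, DWGG was read in 71.6% of 116 in CD103hi and 34.3% of 102 in CD103+, 37.2 points apart (24.2 to 48.5), and GTGG in 7.76% and 42.2%. For TRBD1, DRG was read in 31.6% of 98 and 18.3% of 126, 13.4 points apart (2.04 to 24.7). The aspartate frame was the more frequent in CD103hi within each class looked at. It was used by 54.8% and 27.8% of clonotypes without inserted bases and by 51.1% and 23.9% of those with them. With the TRBJ1 cluster the values were 30.5% and 10.3%, and with TRBJ2 61.9% and 30.6%. In clonotypes with 1 read they were 55.8% and 30.5%, and in those with at least 100 reads 52.4% and 18.2%. In TRBV5, TRBV12-2 and TRBV17, which were more frequent in CD103hi, they were 62.8% and 44.0%, with an interval of the difference that included 0. In all other TRBV segments they were 47.8% and 23.2%.

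Pools of one kind also varied in this measure. The epidermal libraries A to C read the aspartate frame in 41.7%, 55.0% and 23.5% of clonotypes, the last from 34 clonotypes, and the bulk dermal libraries in 28.7% and 34.8%. Over all clonotypes the range of the epidermal pools was thus wider than the difference between the sorts. With at least 10 reads it was narrower: the epidermal values were 48.8%, 50.6% and 21.4%, the last from 14 clonotypes, and the sorts were at 54.4% and 22.6%, 31.8 points apart (17.5 to 44.3). Wild-type dermis stood at 35.3% and lymph node at 31.97%, both above CD103+ and below CD103hi.

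**Figure D3:**
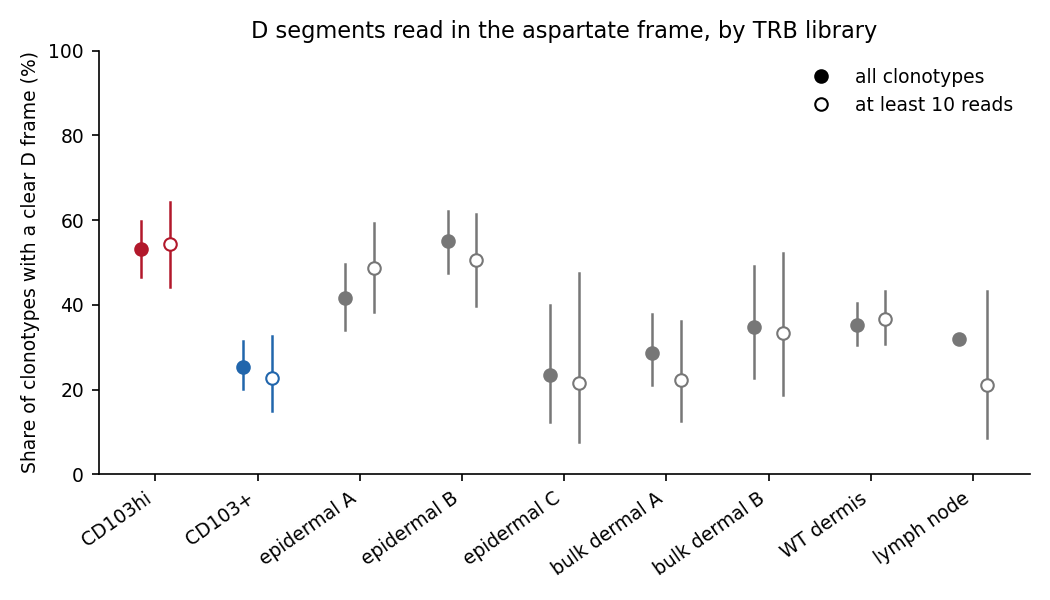
Share of clonotypes with a clear D reading frame that read the D segment in the aspartate frame (y axis, percent) in each of the 9 TRB libraries (x axis), over all clonotypes (filled) and those with at least 10 reads (open); bars are 95% Wilson intervals of counting error. CD103hi stands at 53.3% and CD103+ at 25.4%, and the epidermal libraries run from 23.5% to 55.0%.

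Loop residues differed for some but not all of the residues that the frames encode. Over all 20 amino acids in the middle of the loop (residue 5 to the fifth from the end), 6 had a difference whose interval left out 0 (C, L, P, T, V and W). Tryptophan was present in 24.3% of CD103hi and 12.4% of CD103+ clonotypes, 11.8 points apart (6.65 to 17.0). Threonine was present in 17.6% and 30.0%, -12.4 points apart (-18.0 to -6.73). Aspartate, which V and J segments can also encode, was present in 42.6% and 42.7%, -0.0894 points apart (-6.72 to 6.56), and arginine in 24.8% and 22.6%. Proline was at 11.9% and 17.8% and valine at 4.46% and 9.48%, both lower in CD103hi. The largest CD103hi clonotypes with a loop tryptophan are printed to show the tryptophan of TRBD2 on 4 V segments.
CD103hi TRBV12-2/TRBJ2-1: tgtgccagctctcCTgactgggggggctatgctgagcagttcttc
CD103hi TRBV5/TRBJ2-3, 467 reads: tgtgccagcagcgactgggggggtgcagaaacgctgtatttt
CD103hi TRBV13-3/TRBJ2-4: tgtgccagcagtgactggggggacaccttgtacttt
CD103hi TRBV5/TRBJ2-3, 271 reads: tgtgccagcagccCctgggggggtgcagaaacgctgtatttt
CD103hi TRBV13-1/TRBJ2-5: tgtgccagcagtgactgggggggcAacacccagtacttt
They had 492 reads (1.55%), 467 reads (1.47%), 406 reads (1.28%), 271 reads (0.852%) and 268 reads (0.842%). All 5 keep part of TRBD2, but not all of them read DWGG: the TRBV13-3 chain reads DWGD and the TRBV5 chain of 271 reads has proline before the tryptophan. The CD103+ library had none of them except the TRBV5/TRBJ2-3 clonotype of 271 reads, at 1 read.

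V segment usage differed by the number of clonotypes as well as by reads. TRBV segments encode the first loops of the β chain, which contact MHC, and 18 of them had at least 10 clonotypes over both libraries; the 6 others (TRBV4, TRBV8, TRBV21, TRBV23, TRBV24 and TRBV30) did not. A ratio of at least 2 between the shares of clonotypes was found for 10 of the 18 (55.6%), 5 higher and 5 lower in CD103hi. The 5 higher were TRBV5, TRBV12-2, TRBV17, TRBV29 and TRBV14, and the 5 lower were TRBV16, TRBV3, TRBV15, TRBV26 and TRBV2. The same 10 passed among clonotypes with at least 10 reads when the same 18 segments were compared. Some then rested on few clonotypes, such as TRBV14 with 3 in CD103hi and 1 in CD103+, and TRBV2 with 1 and 4. Of the 11 segments with at least 10 clonotypes of that size, 5 passed. By reads 11 of the 18 (61.1%) passed, 4 higher and 7 lower. TRBV12-2, TRBV14 and TRBV17 were higher and TRBV15, TRBV16, TRBV26 and TRBV3 lower by clonotypes and by reads, with and without clonotypes under 10 reads. Such ratios were also common between pools of one kind. They were found for 14.3% to 47.4% of TRBV segments between epidermal libraries and 50% between the bulk dermal ones by clonotypes, and for 73.7% to 86.7% and 75% by reads.

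TRBV5 had the largest difference in number. It was used by 91 clonotypes (19.9%) in CD103hi and 29 (5.89%) in CD103+, 14.02 points apart (9.83 to 18.3), and by 16.6% and 8.77% of reads. TRBV12-2 was used by 46 clonotypes (10.1%) and 20 (4.07%), 6.00 points apart (2.77 to 9.41). By reads it was the leading segment of CD103hi, at 21.5% against 3.65%, and the leading TRBV12-2/TRBJ1-4 clonotype alone gave 7.04% of all reads. TRBV17 was used by 35 clonotypes (7.66%) and 12 (2.44%), 5.22 points apart (2.47 to 8.21), and by 7.13% and 1.96% of reads. TRBV29 had 13 and 3 clonotypes (2.84% and 0.610%) and TRBV14 had 8 and 4 (1.75% and 0.813%). The interval of the difference left out 0 for TRBV29 and included it for TRBV14; with at least 10 reads TRBV29 had 4 and 1 clonotypes and its interval (-1.31 to 5.09) included 0. Over all clonotypes the interval left out 0 for 10 TRBV segments. With at least 10 reads it did for 6, namely TRBV5, TRBV12-2 and TRBV17, higher in CD103hi, and TRBV3, TRBV15 and TRBV16, lower.

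Among the segments lower in CD103hi, TRBV16 stood out by reads. It had 21 clonotypes (4.595%) in CD103hi and 51 (10.4%) in CD103+, -5.77 points apart (-9.16 to -2.43), and it was the leading segment of CD103+ by reads, at 14.1% against 1.11%. TRBV3 had 13 and 40 clonotypes (2.84% and 8.13%), -5.29 points apart (-8.28 to -2.41), and 1.30% and 5.12% of reads. TRBV15 had 7 and 21 clonotypes (0.415% and 2.77% of reads) and TRBV26 had 11 and 25 (1.06% and 5.42% of reads). TRBV2, with 3 and 10 clonotypes, was at 0.424% and 0.392% of reads, so its difference did not extend to reads. TRBV13-2 and TRBV13-3 were below a ratio of 2 by clonotypes, and their intervals left out 0 over all clonotypes but not among those with at least 10 reads (-12.8 to 0.495 and -11.5 to 1.52). TRBV13-2 had 38 and 69 clonotypes (8.32% and 14.02%) and 3.42% and 12.6% of reads, and TRBV13-3 had 37 and 73 clonotypes (8.10% and 14.8%) and 7.69% and 12.4% of reads.

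The remaining segments, except TRBV13-1, had a larger ratio between the sorts by reads than by clonotypes. TRBV1 had 47 and 43 clonotypes (10.3% and 8.74%) and 16.2% and 8.74% of reads. TRBV13-1 had 34 and 23 clonotypes (7.44% and 4.67%) and 8.64% and 6.74% of reads. TRBV20 had 10 and 18 clonotypes and 3.25% and 10.3% of reads, with the leading TRBV20/TRBJ2-2 clonotype alone at 5.51% in CD103+. TRBV12-1 had 11 and 9 clonotypes but 3.32% and 0.275% of reads, and TRBV19 had 7 and 13 clonotypes and 0.566% and 1.71% of reads. TRBV31, which lies downstream of the J clusters in reverse orientation, had 15 and 22 clonotypes and 3.44% and 1.79% of reads. TRBV12-1 and TRBV12-2 have the same germline letters at the start of the CDR3, as do TRBV13-1 and TRBV13-3, so telling them apart rests on the sequence before it.

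**Figure D4:**
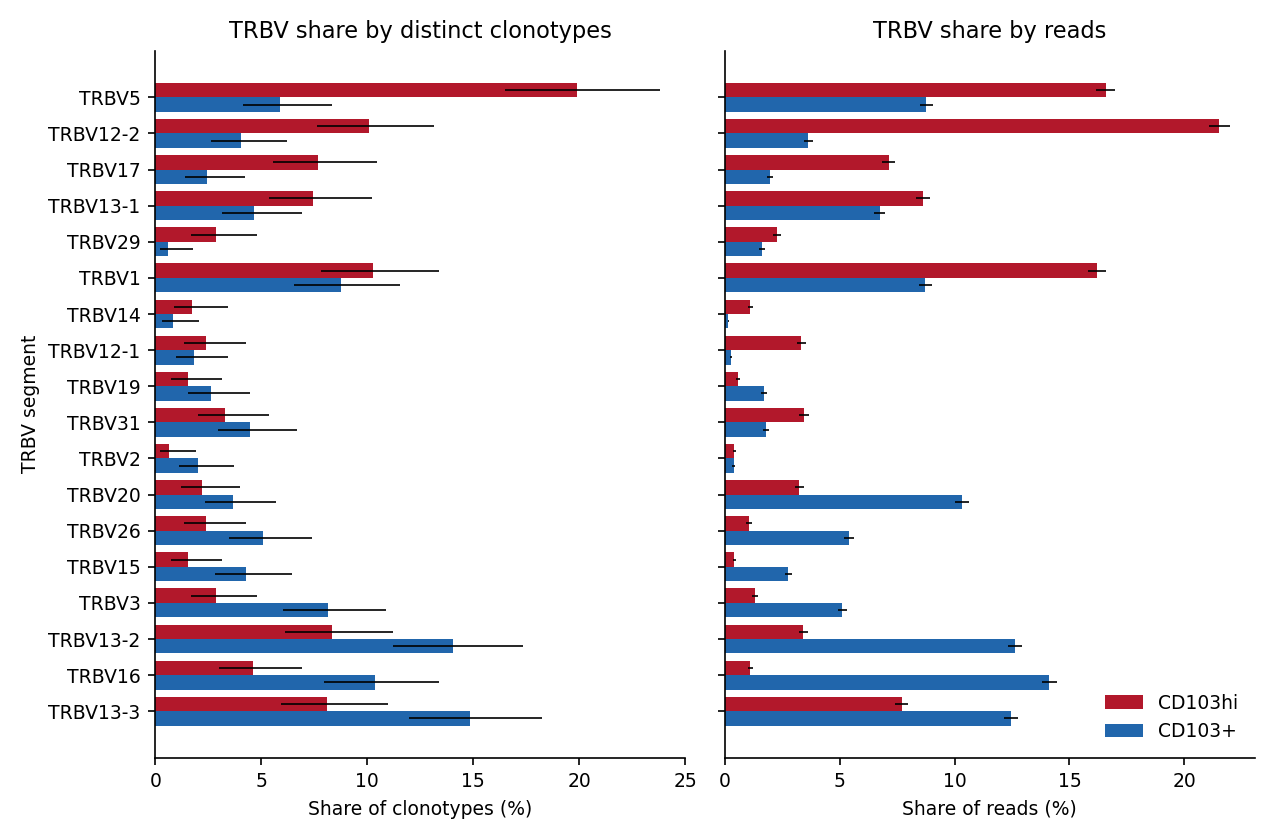
Share of clonotypes (left x axis, percent) and share of reads (right x axis, percent) of the 18 TRBV segments with at least 10 clonotypes over both libraries (y axis) in CD103hi and CD103+; error bars are 95% Wilson (clonotypes) and exact (reads) intervals of counting error. TRBV5 leads CD103hi by clonotypes (19.9%) and TRBV12-2 by reads (21.5%), and TRBV16 leads CD103+ by reads (14.1%).

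In the GRCm38 annotation the functional TRBV segments named here lie on chromosome 6. TRBV3 is at 41048290 to 41048828, TRBV5 at 41062332 to 41062803 and TRBV12-2 at 41118851 to 41119364, all on the forward strand. TRBV16 is at 41151740 to 41152230 and TRBV17 at 41163062 to 41163556. TRBV3 and TRBV5 thus lie close together and TRBV16 and TRBV17 do as well, and within each of these pairs one segment was higher and the other lower in CD103hi.

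Invariant T cells use a few known β segments, but their identity rests on the α chain, which was not measured. The segments associated with NKT cells (TRBV13-2, TRBV29 and TRBV1) held 21.4% of CD103hi and 23.4% of CD103+ clonotypes, and the interval of the difference included 0. Within that list TRBV29 was higher in CD103hi and TRBV13-2 lower. The segments associated with MAIT cells (TRBV19 and TRBV13-3) held 9.63% and 17.5%, -7.85 points apart (-12.2 to -3.50). With at least 10 reads they held 9.55% and 15.1%, and the interval (-12.6 to 1.38) included 0.

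Summed over all TRBV segments, 34.3 percentage points of clonotypes would have to change segment for one sort to match the other. The same measure was 26.8 to 31.1 points between epidermal libraries and 38.3 points between the bulk dermal ones. Against epidermal library B, which was deposited under the same kind of library name as the sorts, CD103+ was 19.0 points away and CD103hi 35.2. With at least 10 reads these distances were 23.8 and 43.0. Library B shared 80 clonotypes with CD103+ and 10 with CD103hi, 0 of them with at least 10 reads in both. How far these shared clonotypes set the distances was not tested. Among clonotypes with at least 10 reads the sorts were 36.5 points apart, the epidermal libraries 25.4 to 42.4 and the bulk dermal ones 41.8. By reads, over all clonotypes, these values were 47.0, 49.8 to 57.2 and 37.5.

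J segments differed less than V segments. By clonotypes 1 of 11 TRBJ segments (9.09%) reached a ratio of 2, and by reads 4 of 11 (36.4%) did. Between epidermal libraries 0% to 66.7% of TRBJ segments did by clonotypes and 40% to 90% by reads. Between the bulk dermal ones these values were 20% and 60%. In the sorts the one by clonotypes was TRBJ2-3, at 12.7% in CD103hi and 6.30% in CD103+, 6.39 points apart (2.68 to 10.2). With at least 10 reads the one segment was TRBJ1-2, lower in CD103hi. The intervals also left out 0 for TRBJ2-4 (11.8% and 7.72%), TRBJ1-2 (3.06% and 6.10%) and TRBJ2-5 (9.85% and 14.4%), and for 0 segments among clonotypes with at least 10 reads. By reads TRBJ1-4 (13.1% and 3.17%) and TRBJ2-1 (13.2% and 5.52%) were higher in CD103hi, and TRBJ2-2 (4.07% and 16.3%) and TRBJ1-2 (1.38% and 8.46%) were lower. Single clonotypes weigh in these values. The TRBJ1-4 share of CD103hi includes the TRBV12-2 clonotype at 7.04% and the TRBV1 clonotype at 2.51%, and the TRBJ2-2 share of CD103+ includes the TRBV20 clonotype at 5.51%. TRBJ2-7 was the commonest segment in both, with 17.9% and 21.3% of clonotypes. The TRBJ1 cluster as a whole held 30.0% and 32.5% of clonotypes, with an interval of the difference from -8.40 to 3.36 points, and 34.5% and 34.9% of reads.

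Of 174 V-J pairs found, 91 were found in both sorts, 39 only in CD103hi and 44 only in CD103+. The pairs with the largest excess of clonotypes in CD103hi all used segments already named. TRBV5 with TRBJ2-3 had 20 clonotypes against 6, TRBV5 with TRBJ2-7 had 12 against 1 and TRBV5 with TRBJ1-3 had 13 against 3. TRBV12-2 with TRBJ2-3 had 12 against 0, and TRBV17 with TRBJ2-1 had 13 against 2. Among clonotypes with at least 10 reads these numbers were smaller. TRBV5 had 7 against 2 with TRBJ2-3, 7 against 0 with TRBJ2-7 and 3 against 2 with TRBJ1-3. TRBV12-2 with TRBJ2-3 and TRBV17 with TRBJ2-1 each had 3 against 0. In the other direction, TRBV13-2 with TRBJ2-5 had 3 against 18, TRBV16 with TRBJ2-7 had 5 against 16, TRBV16 with TRBJ1-1 had 1 against 10 and TRBV13-3 with TRBJ1-1 had 9 against 18. Next, with equal differences, came TRBV31 with TRBJ2-1 (0 against 8), TRBV13-3 with TRBJ2-7 (8 against 16) and TRBV13-2 with TRBJ2-7 (2 against 10). At 10 or more reads, TRBV13-2 with TRBJ2-5 had 2 against 5 and TRBV16 with TRBJ2-7 had 0 against 6. TRBV16 with TRBJ1-1 had 0 against 4 and TRBV13-3 with TRBJ1-1 had 3 against 6. The last 3 pairs had 0 against 1, 4 against 7 and 0 against 5.

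Clone sizes were somewhat more uneven in CD103hi. The 10 largest clonotypes held 29.8% of CD103hi reads (29.3 to 30.3) and 25.4% of CD103+ reads (25.003 to 25.8), and the 20 largest held 44.1% and 39.8%. It took 26 clonotypes in CD103hi and 29 in CD103+ to reach 50% of reads. The inverse Simpson index, the number of equally large clonotypes that would give the same sum of squared read shares, was 59.8 and 70.4. In the epidermal libraries A to C the 10 largest held 37.4%, 24.7% and 84.4% of reads, and in the bulk dermal ones 43.3% and 62.6%. By that share, pools of one kind thus differed more than the sorts did. Their inverse Simpson indices were 45.8, 79.5 and 9.95 (epidermal) and 27.8 and 19.5 (bulk dermal). Clonotypes with at least 1% of reads were fewer in CD103hi (26, with 51.0% of reads) than in CD103+ (35, with 56.9%). At an equal depth of 31823 reads, 457 and 427 clonotypes would be found, but almost all of that difference came from clonotypes with 1 read. Without these the difference fell from 30.0 clonotypes to 0.262.

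The sorts had few clonotypes in common, but more than other pairs of libraries had at a depth of at least 10 reads. Of all clonotypes, 30 were in both, which is 6.56% of CD103hi and 6.10% of CD103+ clonotypes and 14.6% and 16.4% of their reads. The Morisita-Horn index, which runs from 0 for no overlap to 1 for equal composition, was 0.0119 by nucleotide and 0.0169 by amino acid sequence. Among all pairs of the 9 TRB libraries this was the highest nucleotide index, the next being 0.00878 for CD103+ and bulk dermal library A. The epidermal libraries shared 1 or 2 clonotypes with each other and the bulk dermal ones 0, but each of those pairs crosses kinds of library name, while the sorts have the same kind. Of the 50 largest clonotypes, 5 of CD103hi and 9 of CD103+ were found in the other sort. Of the 30, 7 differed over 100-fold in read share and 6 had a single read in both. For a single read beside a large clone, as for the leading TRBV12-2/TRBJ1-4 clonotype (2239 reads in CD103hi and 1 in CD103+) and the TRBV16/TRBJ1-1 clonotype (1 and 1675), a clone in few cells and a read assigned to the wrong library cannot be told apart.

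Of the shared clonotypes, 10 had at least 10 reads in both, where no other pair of TRB libraries had more than 3. Of the 10, 7 had the higher share in CD103+ and 3 in CD103hi. They made up 5.62% and 5.81% of the clonotypes of that size, but 2.22% of CD103hi and 10.05% of CD103+ reads. The most evenly shared was a TRBV31/TRBJ1-2 clonotype, with 70 and 73 reads (0.220% and 0.170%). One TRBV13-3/TRBJ1-1 amino acid sequence was present in both sorts in a pair of nucleotide forms, printed here since separate nucleotide sequences encode the same loop.
TRBV13-3/TRBJ1-1, without inserted bases: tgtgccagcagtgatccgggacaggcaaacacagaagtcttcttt
TRBV13-3/TRBJ1-1, with 1 inserted base: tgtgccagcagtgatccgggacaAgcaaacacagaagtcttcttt
The form without inserted bases had 138 reads in CD103hi and 606 in CD103+ (0.434% and 1.41%), and the other had 49 and 568 (0.154% and 1.33%). Both were thus the larger in CD103+.

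Of the others, 5 had the higher share in CD103+. They were a TRBV13-3/TRBJ2-7 clonotype (61 reads in CD103hi and 643 in CD103+), a TRBV16/TRBJ1-2 clonotype (56 and 583), a TRBV20/TRBJ2-2 clonotype (36 and 789), a TRBV17/TRBJ2-7 clonotype (22 and 204) and a TRBV13-2/TRBJ2-5 clonotype (12 and 779). A TRBV5/TRBJ1-3 clonotype (238 and 47) was larger in CD103hi, as was an incomplete TRBV21 sequence (25 and 13). The TRBV5, TRBV16, TRBV20 and TRBV13 clonotypes were larger in the sort that used their segment more by reads, and the TRBV17 clonotype was larger in the other sort.

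**Figure D5:**
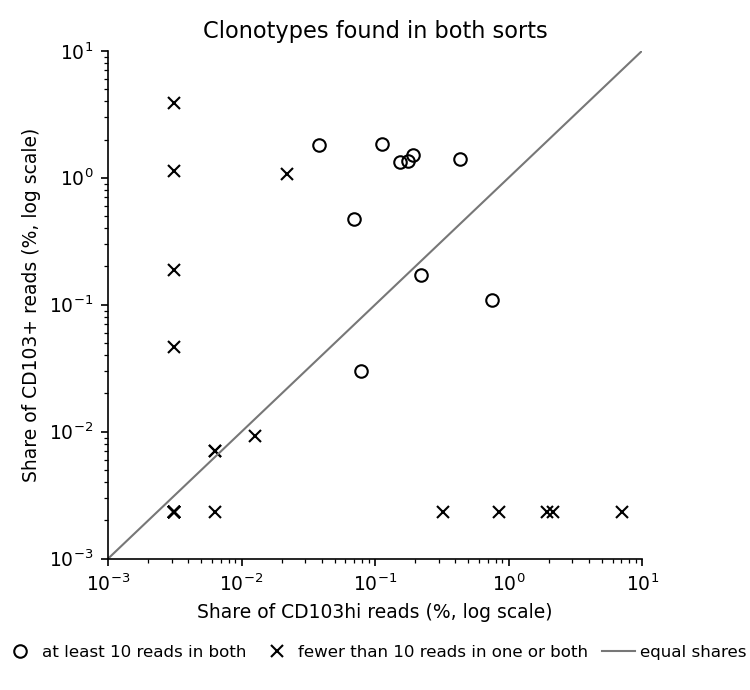
Read share of each of the 30 shared clonotypes in CD103hi (x axis, percent, log scale) and in CD103+ (y axis, percent, log scale), as circles where both had at least 10 reads and crosses elsewhere; the line marks equal shares and points that coincide overlap. Of the 10 circles 7 lie above the line, and crosses along the lower and left edges had 1 read in one sort.

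Leaving out the shared clonotypes gave similar values for the joints. Among clonotypes private to a sort, 45.2% of those in CD103hi and 30.3% of those in CD103+ had no inserted base, and with at least 10 reads 50.3% and 25.5%. Among the 30 shared ones the share was 43.3%. Amino acid sequences encoded by several nucleotide forms were 8.36% of those in CD103hi and 5.74% in CD103+, and 2.96% and 3.73% with at least 10 reads.

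Epidermal library B shared 10 clonotypes with CD103hi and 80 with CD103+, with 0 at 10 or more reads in both. Clonotypes at under 1% of their share in another library of the set numbered 9 in CD103hi and 63 in CD103+, and 58 of the 63 were traces of clonotypes of epidermal library B. Without such clonotypes the shared number fell from 30 to 19. Their origin was not tested.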

How the data were processed

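The authors deposited 1 clonotype table per library, with read counts, the read fraction, CDR3 sequences, V, D and J names and segment positions, per the file headers. The deposited counts were whole reads and the deposited fraction was the count over the library total, tested on the files. Aligner, caller and genome build are not given in the sources used here. Clonotypes were counted by V, J and nucleotide CDR3 with no filter, and again with at least 10 reads. Germline ends and coordinates came from the GENCODE M21 annotation of GRCm38. V and J were both matched to it for 456 CD103hi and 492 CD103+ clonotypes, and the deposited V end ran past the germline V in 73 and 91. Inserted bases came from the deposited positions, and trimming is germline length minus assigned length. Incomplete CDR3 sequences (53 and 49 clonotypes, 0.993% and 0.481% of reads) were kept. D frames and loop residues came from the deposited CDR3. Python 3.11.15, pandas 2.3.3, scipy 1.17.1 and statsmodels 0.14.6 were used, and the code was tested on simulated data.

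Named were segments with at least 10 clonotypes over both libraries, the 5 V-J pairs with the largest difference in clonotypes each way, the 5 largest clonotypes of each library, the 10 leading shared ones, and the 3 largest complete ones without and 2 with most inserted bases. Clonotypes differing from the germline J at 3 or more bases (11 and 10, with 0.647% and 2.07% of reads) were counted but not named. The members and lists were chosen with earlier results of these data known. Alternatives were clonotypes with at least 2 or 10 reads, complete CDR3 only, no trace clonotypes, weighting by reads, the germline rule and merging of near-identical clonotypes. Chosen after seeing the data were a wider merging, leaving out clonotypes with unlike J ends, the germline rule with at least 10 reads and for trimming, and the D frame with its alternatives.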

Additional observations from a re-analysis of the deposited data

How the results depend on the processing

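No paired analysis was possible because each sort had 1 library. Differences are CD103hi minus CD103+. Of 123 values under alternatives, 86 stayed within the limit set for them, 33 moved and 4 turned sign. The cause was not tested. For shares the limit was the interval of the difference, and for means and counts it was a fixed ratio to the main value. The share without inserted bases (13.98 points) rose to 22.1 with at least 10 reads, 21.5 by reads and 33.3 with the germline rule at 10 reads, where the mean number of inserted bases differed by -1.51. Mean length differed by -0.517 amino acids with at least 10 reads and -0.936 by reads, and V trimming (-0.559 bases) by -0.973 by reads and 0.0879 with the germline rule. D trimming (-0.0756) turned to 0.00379 with at least 2 reads, 0.138 with 10 and 0.00900 without trace clonotypes; it was -0.0356 with complete CDR3, -0.175 with merging of clonotypes up to 3 bases apart, -0.0467 without unlike J ends and -0.135 by reads. J trimming (0.154) was 0.537 with at least 10 reads, 0.277 without trace clonotypes, 0.0398 with complete CDR3, 0.842 by reads 0.0701 with the germline rule and 0.546 with that rule at 10 reads. The TRBV count (10) was 5 with at least 10 reads, where fewer segments held 10 clonotypes, and 6 after merging. The TRBJ count (1) was 0 without trace clonotypes, with complete CDR3 and after merging, and 4 by reads. With at least 2 or 10 reads it was also 1, but there the segment was lower in CD103hi, not higher. The equal-depth difference (30.0 clonotypes) was 0.262 with at least 2 reads, 6 with 10, 72.9 without trace clonotypes, 16.0 with complete CDR3, 4.20 after merging and 13.7 at 1000 reads. Shared clonotypes (30) were 14 with at least 2 reads, 10 with 10 and 19 without trace clonotypes. The aspartate frame (27.8 points) was 44.3 by reads. The TRBJ1 share (-2.54 points) ranged from -4.10 to -0.0846, within its interval and with the same sign. The share of the 10 largest clonotypes (4.03 to 4.54 points) and the inverse Simpson index (-11.1 to -8.12) stayed close. Single-read clonotypes set how far counts of clonotypes can be compared. Merging of clonotypes up to 1 base apart joined 0, so its values equal the main ones and were within the limit by construction. Merging up to 3 bases apart, at a lower ratio of reads, joined 144 of 457 CD103hi and 152 of 492 CD103+ clonotypes. It left 313 and 340.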
